A study of Solanum lycopersicum with 2 samples.

Results

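The anthocyanin branch of flavonoid synthesis was examined in leaves of tomato plants in which SlCycB2, which encodes a B-type cyclin, was either silenced or overexpressed. The 9 genes were chosen by identifier: the enzymes F3'5'H, DFR, ANS, 3GT and 5GT, the glutathione transferase AE, and the regulators ANT1, AN2 and AN1. All 9 were among the 34725 gene models of the deposited table. There were 2 groups with 1 library each. One library came from SlCycB2 RNAi plants, in which the cyclin is meant to be silenced, and the other from SlCycB2-OE plants, in which it is overexpressed. Both were young primary leaf of mature plants of the cultivar Ailsa Craig (AC). The promoters of the constructs, the number of transgenic lines and the number of plants pooled are not stated in the labels, and no wild-type leaf was part of the comparison. A difference between the libraries therefore belongs to the pair of manipulations and not to either alone, and its size cannot be weighed against plant-to-plant variation. The libraries are called RNAi leaf and OE leaf.

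Anthocyanins are the red, purple and blue pigments made from dihydroflavonols, the products of the early flavonoid pathway. F3'5'H hydroxylates the B ring and so commits precursors to delphinidin-type pigments, which dominate in purple tomato tissue. DFR reduces dihydroflavonols to leucoanthocyanidins, ANS converts these to coloured anthocyanidins, and the glycosyltransferases 3GT and 5GT attach sugars that stabilise the pigment. AE, a glutathione transferase, is required for anthocyanin to accumulate in the vacuole. The late genes are switched on by a complex of a MYB factor, here ANT1 or AN2, with a bHLH factor, here AN1, and a WD40 protein. In leaves the branch is known to respond to light, cold and nutrient stress.

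Levels are RPKM as calculated by the authors, that is, read counts corrected for the length of the gene model and for the mapped reads of the library. RPKM corrects for gene length, so levels of different genes can be set side by side. Differences are given as log2 of RPKM plus 1 in OE leaf over RPKM plus 1 in RNAi leaf, so that differences of low genes come out too small. A gene was compared where its RPKM averaged at least 1 over both libraries, and a gene was counted as apart at 2-fold or more either way. Because each group had 1 library, no test between conditions was made. Of the 9 genes, 7 met the level filter, and ANT1 and AN1 did not.

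The 5 enzymes and AE had modest transcript levels, from 4.48 to 7.73 RPKM in RNAi leaf and from 3.18 to 9.27 RPKM in OE leaf. The order of the genes differed at F3'5'H and 3GT. F3'5'H was second of the 9 genes in RNAi leaf and sixth in OE leaf, while 3GT was sixth in RNAi leaf and second in OE leaf. DFR, ANS and AE were close to equal in both libraries, and 5GT was somewhat higher in OE leaf. The 3 regulators lay below all 6 of these genes in both libraries. Of the 7 compared genes, 1 was at least 2-fold lower in OE leaf and 0 were at least 2-fold higher. Among all 19466 compared genes, 1.92% were at least 2-fold lower and 2.6% at least 2-fold higher. The median log2 difference was 0.022 over the 7 genes and 0.13 over all compared genes.

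**Figure D1:**
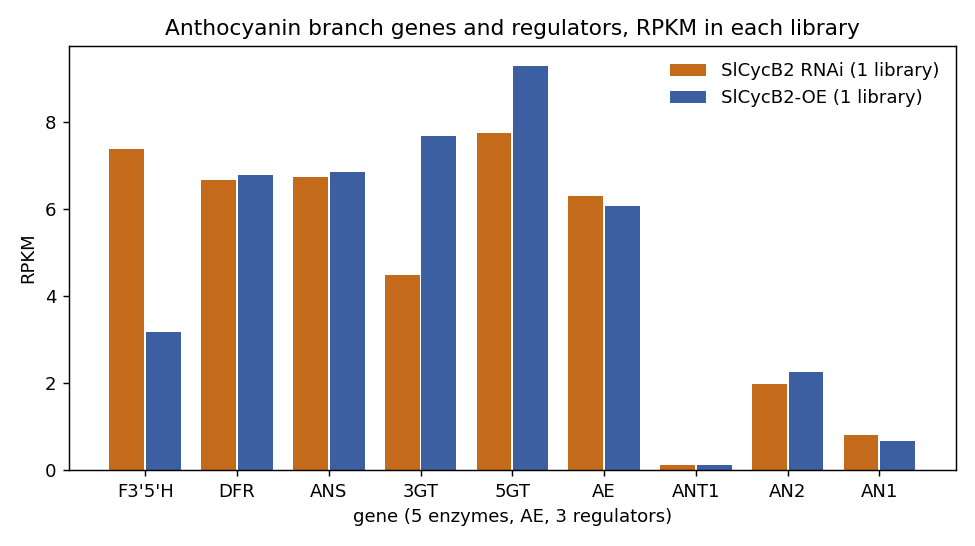
Bars give RPKM (y axis, from 0) of the 9 genes (x axis) in RNAi leaf and OE leaf, 1 library each, so no error bar can be drawn. F3'5'H was at 7.38 RPKM in RNAi leaf and 3.18 RPKM in OE leaf, 3GT was at 4.48 and 7.66 RPKM, and the 3 regulators were the lowest in both.

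F3'5'H (Solyc11g066580.1.1, on chromosome 11 by its identifier) had the largest difference of the 7 compared genes. Its level was 7.38 RPKM in RNAi leaf and 3.18 RPKM in OE leaf, a plain ratio of 2.32 in favour of RNAi leaf. The log2 difference with the pseudocount was -1.003, next to the 2-fold limit. It stood at position 369 from the lowest among the 19466 compared genes. Among compared genes with a mean RPKM of 4.93 to 6.91, a range that holds the level of F3'5'H, 1.39% were at least 2-fold lower. A further 2.21% of them were at least 2-fold higher. These rates are per gene. F3'5'H was picked as the most extreme of 7 compared genes, so the rates do not show that its difference was unusual. The position relative to the limit depended on the scale. With a pseudocount of 5 the log2 difference was -0.60 and with both libraries rescaled to the same RPKM sum, the mean of their own sums, it was -0.995, both within 2-fold, whereas without a pseudocount it was -1.21. The RNAi library had the higher value under each of these scales. A pseudocount added to both libraries cannot change which value is higher, so those settings do not check the direction.

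DFR and ANS, the enzymes of consecutive steps, had almost the same level as each other in each library. DFR (Solyc02g085020.2.1, chromosome 2) was at 6.65 RPKM in RNAi leaf and 6.77 RPKM in OE leaf. ANS (Solyc08g080040.2.1, chromosome 8) was at 6.73 RPKM in RNAi leaf and 6.85 RPKM in OE leaf. The level of DFR was 0.988 times that of ANS in both libraries. Their log2 differences were 0.022 each, and both took the opposite sign, at -0.11, when the libraries were centred on the median of all compared genes or scaled by a trimmed mean of ratios.

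The glycosyltransferases were both higher in OE leaf, within 2-fold, a direction shared by 67.8% of all compared genes before centring. 3GT (Solyc10g083440.1.1), which adds a sugar at the 3 position of the anthocyanidin, was at 4.48 RPKM in RNAi leaf and 7.66 RPKM in OE leaf. Its plain ratio was 1.71 and its log2 difference 0.66, position 1437 from the highest of the compared genes, and the log2 difference was 0.53 after centring. Of all compared genes, 11.2% were at least as far apart in either direction. 3GT had the highest log2 difference of the 7 compared genes, so this rate does not show that its difference was unusual. 5GT (Solyc12g098590.1.1, chromosome 12), which acts at the 5 position, was at 7.73 RPKM in RNAi leaf and 9.27 RPKM in OE leaf. It was the most abundant of the 9 genes in both libraries, and its log2 difference was 0.23, or 0.099 after centring on the median. About as many compared genes were farther apart than 5GT as were closer, with 49.97% at least as far apart in either direction.

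AE (Solyc02g081340.2.1, chromosome 2) was at 6.28 RPKM in RNAi leaf and 6.07 RPKM in OE leaf. Its log2 difference was -0.042, or -0.18 after centring, so its level was nearly the same in both leaves. Across the 5 enzymes and AE the summed level was 39.25 RPKM in RNAi leaf and 39.8 RPKM in OE leaf, a ratio of 1.01. On the deposited scale the sum was thus close to equal while its make-up differed. The libraries were not centred for this sum, although the median log2 difference of all compared genes was 0.13. F3'5'H supplied 18.8% of the sum in RNAi leaf and 7.99% in OE leaf. 3GT supplied 11.4% in RNAi leaf and 19.2% in OE leaf. DFR, ANS and AE each supplied between 15.25% and 17.2% in both.

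Ratios of genes within a library do not depend on how the libraries are scaled to each other. The level of F3'5'H was 1.11 times the median of the other 5 genes in RNAi leaf and 0.464 times that median in OE leaf. For 3GT the corresponding values were 0.666 and 1.13. Against DFR, ANS, 5GT and AE taken singly, the relative level of F3'5'H differed 2.24-fold to 2.78-fold between the libraries. Against 3GT, the pair chosen because it held the lowest and the highest log2 difference, F3'5'H was at 1.65 times the level of 3GT in RNAi leaf and at 0.415 times in OE leaf, a 3.97-fold difference between the libraries. For DFR against the median of the other 5 the value was 0.988 in both libraries. That median was the level of ANS in each, so the value repeats the ratio of DFR to ANS. The highest of these 6 genes was 1.73 times the lowest in RNAi leaf and 2.92 times the lowest in OE leaf, with 5GT at the top in both and with 3GT and F3'5'H respectively at the bottom. How far such ratios vary between leaves of the same plants was not tested, as each group had 1 library.

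**Figure D2:**
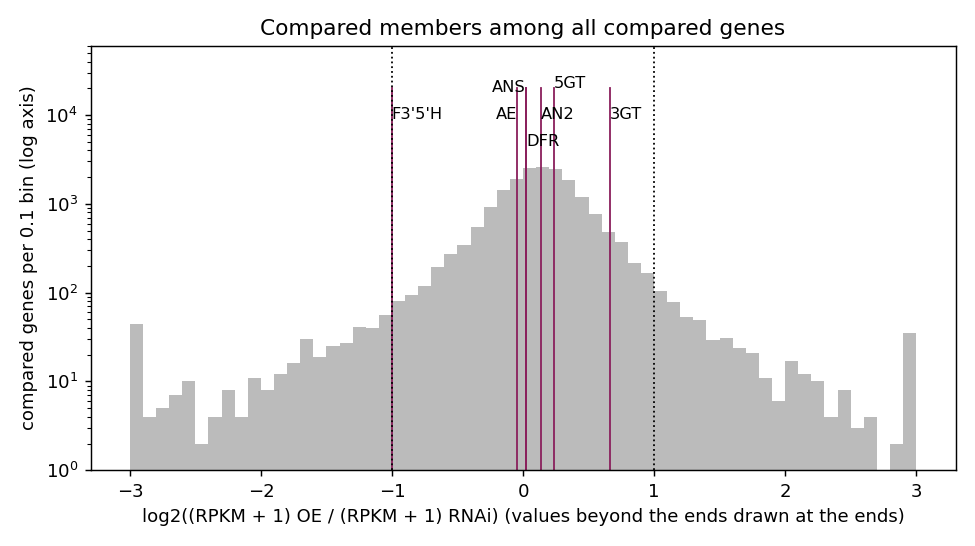
Histogram of the log2 difference (x axis, SlCycB2-OE over RNAi, RPKM plus 1) of the 19466 compared genes, with the number of genes per bin on a log axis, vertical lines for the 7 compared anthocyanin genes and dotted lines at 2-fold. F3'5'H lies at the lower 2-fold limit with -1.003, 3GT at 0.66 on the higher side, and the other 5 genes between -0.042 and 0.23, around the median of all genes of 0.13.

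The MYB and bHLH regulators had low transcript levels in both libraries. AN2 (Solyc10g086250.1.1), a MYB activator of the late genes, was at 1.97 RPKM in RNAi leaf and 2.26 RPKM in OE leaf. Its log2 difference was 0.13, equal to the median of all compared genes to 2 decimals, and it was about 0 after centring. AN1 (Solyc09g065100.1.1, chromosome 9), the bHLH partner, was at 0.8 RPKM in RNAi leaf and 0.66 RPKM in OE leaf. ANT1 (Solyc10g086260.1.1), a MYB activator whose overexpression turns tomato tissue purple, was at 0.12 RPKM in RNAi leaf and 0.13 RPKM in OE leaf. Without the level filter, the log2 differences of AN1 and ANT1 were -0.12 and 0.013. None of the 3 regulators was 2-fold apart, also on the plain ratio, which was 1.15 for AN2, 0.825 for AN1 and 1.08 for ANT1. At such levels few reads may stand behind a value. The read totals are not given, so the counting error of these values is unknown.

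The position of the genes is a property that their choice did not use. AN2 and ANT1 are neighbouring identifiers on chromosome 10, and 3GT lies on the same chromosome, 277 identifiers away. Of the 20 identifiers around ANT1, 13 were compared, with log2 differences from -0.69 to 0.92. Of these, 0 were at least 2-fold apart, beside 4.52% of all compared genes, so the count of 0 says little about the region. The next identifier on the other side of ANT1, Solyc10g086270, was at 0.79 RPKM in RNAi leaf and 0.67 RPKM in OE leaf, and Solyc10g086290 was listed at 0 in both. Each of these 2 loci is in the list of other anthocyanin regulators described with the rest of the pathway.

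F3'5'H, which had the lowest log2 difference of the 7 compared genes, was set beside its neighbours. Of the 20 nearest identifiers, 18 were compared. Of these, 0 were at least 2-fold lower and 1 was at least 2-fold higher, beside 1.92% and 2.6% of all compared genes. At such a share a count of 0 among 18 says little about the region. Their log2 differences ran from -0.27 to 1.77 with a median of 0.22. Around 3GT, 12 of 20 identifiers were compared, 2 were at least 2-fold higher and 0 lower, and the median was 0.22. Both higher neighbours had a low mean RPKM, at 2.69 and 3.94. Such higher calls made up 4.93% of compared genes with a mean RPKM of 1.97 to 3.335. Their share was 3.81% from 3.34 to 4.925 RPKM and 2.6% over all levels. Whether 2 of 12 neighbours is unusual was not tested. 3GT itself stood between identifiers at 0, since 6 of the 20 were listed at 0 in both libraries and included the identifiers directly before and after it. AE was followed by 3 identifiers with lower values in OE leaf, at log2 differences of -0.96, -1.13 and -0.86, while AE was at -0.042. The 3 were at 2.58, 4.55 and 1.76 RPKM in RNAi leaf and at 0.84, 1.53 and 0.52 RPKM in OE leaf. Without the pseudocount all 3 were more than 2-fold lower in OE leaf. These 3 were picked out after the values were seen, and their mean RPKM was low, at 1.71, 3.04 and 1.14. At a mean RPKM of 1 to 1.965, 10.3% of compared genes were at least 2-fold apart, and at 1.97 to 3.335, 8.83%. Of the 17 compared neighbours of AE, 1 was at least 2-fold lower and 0 higher, with a median of 0.18. These rates are per gene and do not give how often 3 neighbours in a row are lower, so whether the run is unusual was not tested. Over the 160 distinct identifiers around the 9 genes, 113 were compared and 5.31% were at least 2-fold apart, against 4.52% of all compared genes.

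**Figure D3:**
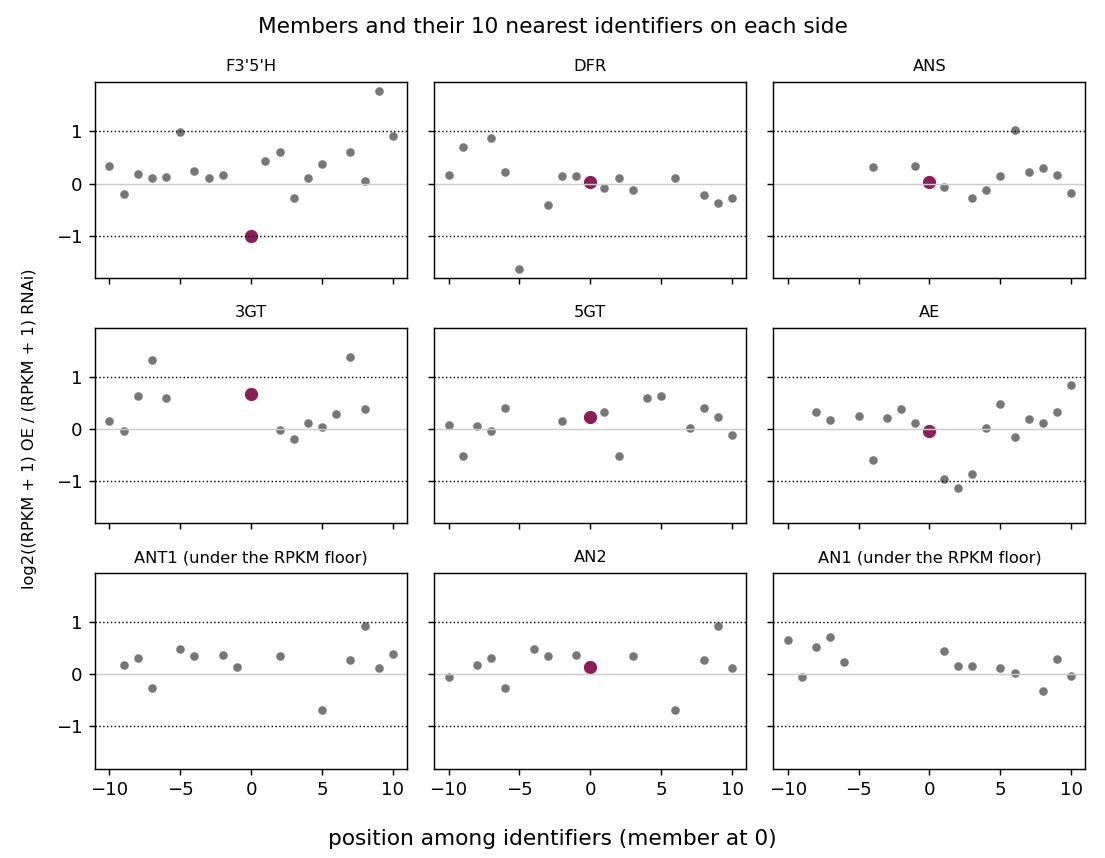
Each panel gives the log2 difference (y axis, SlCycB2-OE over RNAi, RPKM plus 1) of a gene (large point at 0) and its 10 nearest identifiers on each side (small points, x axis in identifiers), with dotted lines at 2-fold. F3'5'H, the lowest of the 7 compared genes at -1.003, is below its 18 compared neighbours, which run from -0.27 to 1.77. ANT1 and AN1 have no large point because their mean RPKM is below 1.

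The remaining pathway was described with 18 loci taken from general knowledge of the tomato genome. The deposited table gives no names, so no function could be checked, and individual loci are not named by function. Of the 18 loci, 14 were compared. In OE leaf 2 of these were at least 2-fold lower and 0 at least 2-fold higher, beside 1.92% and 2.6% of all compared genes. Both lower loci belong to the list of early flavonoid genes, which covers synthesis from chalcone to dihydroflavonol, flavonol formation and its MYB regulator. Solyc09g091510 was at 11.3 RPKM in RNAi leaf and 4.17 RPKM in OE leaf, a log2 difference of -1.25. Solyc03g115220 was at 4.63 RPKM in RNAi leaf and 1.11 RPKM in OE leaf, a log2 difference of -1.42.

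Of the 8 early loci, 7 were compared and 6 had lower values in OE leaf, with a median log2 difference of -0.72 and a range from -1.42 to 0.22. Of all compared genes, 32.0% had lower and 67.8% higher values in OE leaf on this scale. The summed level of the 8 early loci was 97.1 RPKM in RNAi leaf and 63.9 RPKM in OE leaf. F3'5'H, at -1.003, lay within the range of log2 differences of the early loci. DFR, ANS, AE and AN2 lay near its upper end, between -0.042 and 0.13, and 5GT and 3GT lay above it. Among the 6 loci listed as other anthocyanin regulators, the 3 compared were all higher in OE leaf and within 2-fold, at log2 differences of 0.21 to 0.69, or 0.073 to 0.55 after centring, a direction shared by 67.8% of all compared genes before centring. The 4 loci listed for anthocyanin decoration and transport were all compared and all within 2-fold, from -0.91 to 0.024, with a median of -0.19. The lowest of these 4 loci, at 14.51 RPKM in RNAi leaf and 7.25 RPKM in OE leaf, passed the 2-fold limit at -1.046 after centring, at -1.044 after the trimmed mean and on the plain ratio. These lists were small and chosen with earlier results of these data known, so the counts describe the 2 libraries and are not evidence for a shift of the pathway.

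**Figure D4:**
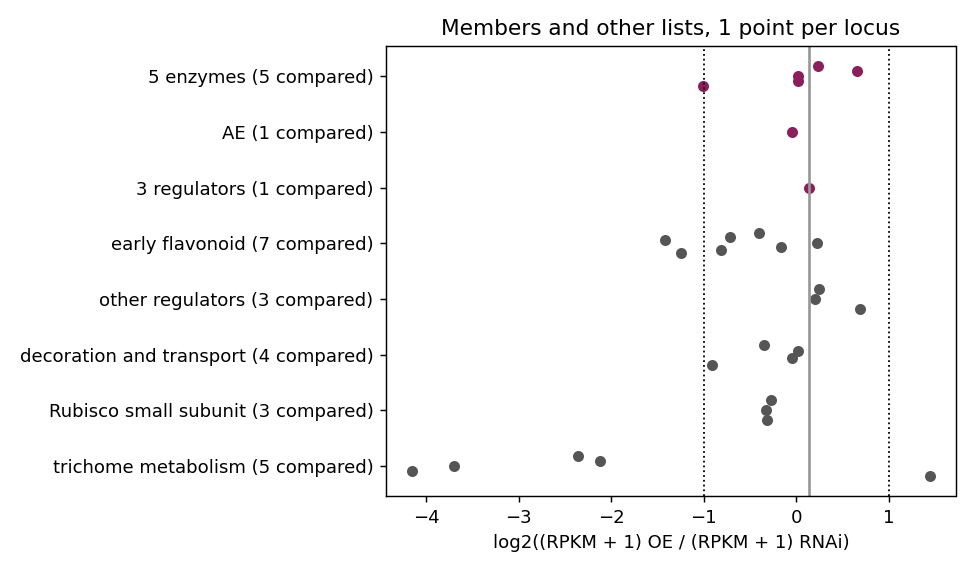
Points are loci with a mean RPKM of at least 1, placed by log2 difference (x axis, SlCycB2-OE over RNAi, RPKM plus 1) in rows for the 5 enzymes, AE, the regulators and 5 lists of other loci. The grey line is the median of all compared genes at 0.13 and dotted lines mark 2-fold. The enzymes run from -1.003 to 0.66, the early flavonoid loci from -1.42 to 0.22 and the trichome loci from -4.15 to 1.44.

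The libraries also differed in loci that mark other features of the leaf. The 3 loci listed as Rubisco small subunits, markers of photosynthetic leaf tissue, lay between 8226 and 25689 RPKM, so both libraries carried the leaf signal. All 3 were lower in OE leaf but within 2-fold, at log2 differences of -0.32 to -0.27. Lower values in OE leaf were found in 32.0% of all compared genes. The 9 loci listed for glandular trichome metabolism had 8 rows in the table. Their summed level was 48.9 RPKM in RNAi leaf and 8.39 RPKM in OE leaf. Of the 5 compared, 4 were at least 2-fold lower and 1 at least 2-fold higher in OE leaf, beside 1.92% and 2.6% of all compared genes, and the 3 others were listed at 0 there. In bulk leaf, fewer cells of a type and less RNA per cell cannot be told apart. The part of these differences in the values of F3'5'H and 3GT was not tested.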

How the data were processed

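RNA sequencing was done on 1 library each of SlCycB2 RNAi and SlCycB2-OE leaf (RNAi leaf and OE leaf). Per the labels' protocols, RNA was extracted with TRIzol and libraries followed Illumina procedures. The submitters' processing notes name TopHat, which aligns spliced reads, with neither version nor role. The genome build, annotation, counting program, strand use and treatment of multiply mapped reads are not stated in the labels or the file header, so reads shared between gene copies could not be assessed. Values are RPKM as deposited by the authors, per the file headers, with 2 decimals. Read totals are not given. Over 2589 low genes, the RPKM that 1 read is worth was scanned as a ratio of OE leaf to RNAi leaf, from 0.5 to 2. The best value was 1.02, where 27.96% of the ratios lay within 0.01 (natural log) of a fraction of whole numbers up to 3, against a median of 3.75% over the scan. Libraries of similar depth gave the best score, but simple multiples scored nearly as well.

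Differences were log2((RPKM + 1) / (RPKM + 1)), SlCycB2-OE over RNAi, for genes averaging at least 1 RPKM, counted as apart at 2-fold. The calculation was tested on simulated data with 4-fold differences planted in genes averaging at least 5 RPKM, with counting noise only and an assumed depth. That test does not cover differences near the 2-fold limit or variation between plants. Names of the 9 genes come with their identifiers from the choice of genes. The RefSeq table (assembly SLM_r2.1, 41476 genes) holds 0 of the identifiers, and 4 of the 9 symbols (F3'5'H, DFR, ANS and ANT1) occur there, each on the chromosome of its identifier. All 9 genes were named with values, and pathway loci only where 2-fold apart or, for 2 loci beside ANT1, because of their position, chosen after their values were seen. No gene was named for likeness of pattern, since 2 libraries give 1 ratio per gene. The genes, lists and alternatives were chosen with earlier results of these data known. Python 3.11.15, numpy 2.4.6, pandas 2.3.3 and matplotlib 3.10.9 were used.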

Additional observations from a re-analysis of the deposited data

How the results depend on the processing

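Settings varied were the pseudocount (0.1, 5, and 0, the last added after the data were seen), the scaling (same RPKM sum, centring on the median, trimmed mean of ratios), the level filter (none, or an average of 5 RPKM or more) and the fold limit (4-fold). The count of 1 lower gene among the 9 genes, F3'5'H, was 0 with a pseudocount of 5, with the same RPKM sum and at the 4-fold limit, and 1 under the other 6 settings. The count of these genes at least 2-fold higher was 0 under all 9. Of the pathway loci, 2 were lower as reported, 0 with a pseudocount of 5 or the 4-fold limit, 1 with the filter at 5 RPKM, and 3 after centring, the trimmed mean or a pseudocount of 0. Over all compared genes, 506 were higher and 373 lower. These counts were 906 and 573 with a pseudocount of 0.1, 141 and 128 with 5, 1020 and 594 with 0, 222 and 155 with the filter at 5 RPKM, and 96 and 99 at the 4-fold limit. The split of calls moved with centring, to 369 higher and 482 lower, and with the trimmed mean, to 375 and 442. Of 55 values of the 7 compared genes under the alternatives, 5 took the other sign. These were DFR and ANS under both rescalings by ratio, and AN2 at -0.00056 after centring. Only the values under a changed scaling could take the other sign. A pseudocount keeps the order of the libraries and a level filter does not alter a value. The total of 55 therefore overstates how far the signs were checked. No replicate could be left out and no spread between leaves could be measured. No paired analysis was possible because each group is a single library.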
